A study of Homo sapiens with 4 samples.

Results

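Replication-dependent histone genes were examined in RNA-seq of polyadenylated RNA from cells labelled HepG2, with and without CRISPR-Cas9 targeting of TXNDC9. They were taken as the rows whose gene symbol started with HIST1H, HIST2H, HIST3H or HIST4H and did not contain PS, a rule that used the symbol and no measured value. Of the 57979 genes with values, 89 had such a symbol and 76 remained once 13 with PS were left out. Of these 76, 59 had a value above 0 in at least 1 library and are described here, and the other 17 were at 0 in all 4 libraries. In the current annotation 57 of the 59 are protein-coding genes, and HIST2H2BC and HIST2H2BD are transcribed pseudogenes. The 59 held 4 genes of linker histone H1, 16 of H2A, 17 of H2B, 10 of H3 and 12 of H4. By cluster, 44 belonged to HIST1 on chromosome 6, 11 to HIST2 and 3 to HIST3 on chromosome 1, and 1 was HIST4H4 on chromosome 12.

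The study compared 2 wild-type libraries (WT) with 2 libraries of TXNDC9 knockout cells (TXNDC9-KO). HepG2 is the name of a human liver cancer cell line, and both groups were grown in the same serum-containing medium. The knockout was made with the lentiCRISPRv2 vector and a guide to TXNDC9, a thioredoxin domain protein. The control libraries are labelled wild type, while the paper's western blot of the knockout had a control with vector alone. Whether the WT cells sequenced had received the vector is unclear, so its effect cannot be told apart from that of the knockout. Whether the knockout libraries came from 1 guide or both, and from a clone or a mixed population, is not given in the sources used here, and neither is whether the libraries of a group came from separate cultures, so that the spread between them may be technical.

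Histones are the proteins around which DNA is wound. H2A, H2B, H3 and H4 form the core of the nucleosome and H1 binds the linker DNA between nucleosomes. Replication-dependent histone genes are transcribed mainly in S phase, lack introns and sit in clusters, often as H2A and H2B genes that share a promoter region and point away from each other. Their pre-mRNAs are normally cut just behind a conserved stem-loop, which is bound by the stem-loop binding protein SLBP, with the help of the U7 small nuclear ribonucleoprotein, and the mature mRNAs then carry no poly(A) tail. Some of these genes can also give longer, polyadenylated mRNAs from sites further downstream, and replacement histone genes outside the clusters, expressed through the cell cycle, mostly give ordinary polyadenylated mRNAs. In RNA selected for poly(A), such as these libraries, a histone gene's value therefore covers only the transcripts that the selection kept.

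The stem-loops of 7 genes are shown first, since the histone stem-loop is the feature that sets these mRNAs apart. They belong to the 2 genes with the highest levels (HIST1H1C and HIST1H2BK), to HIST2H2AC, which showed the largest called fall, to the 3 genes that were called higher (HIST4H4, HIST1H2AK and HIST1H2AG), and to HIST1H4I, as an example of the rarer H4 stem-loop. Each run was read 5′ to 3′ on the coding strand from hg38, with 5 bases on each side in lower case and the 16 bases of stem and loop in capitals.
HIST1H1C (chr6:26055739-26055764, minus strand): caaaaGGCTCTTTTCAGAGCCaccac
HIST1H2BK (chr6:27146361-27146386, minus strand): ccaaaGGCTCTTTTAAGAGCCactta
HIST2H2AC (chr1:149887386-149887411, plus strand): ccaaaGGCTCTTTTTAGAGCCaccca
HIST1H2AG (chr6:27133510-27133535, plus strand): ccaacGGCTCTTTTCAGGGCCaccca
HIST1H2AK (chr6:27837880-27837905, minus strand): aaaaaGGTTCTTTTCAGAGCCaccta
HIST4H4 (chr12:14770719-14770744, minus strand): caaaaGGCCCTTTTCAGGGCCcccaa
HIST1H4I (chr6:27139649-27139674, plus strand): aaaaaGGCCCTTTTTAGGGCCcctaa

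A stem-loop motif (GG, any 2 bases, CT, any base, T, any 2 bases, AG, any 2 bases, CC) was searched on the coding strand in the 100 bases after each stop codon. It was present in 56 of the 57 detected members with a stop codon, 22 to 67 bases behind it, against 76 of 19924 coding genes (0.381%) in the whole annotation. The exception was HIST1H3E. The core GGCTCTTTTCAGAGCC was the most common, in 32 members, and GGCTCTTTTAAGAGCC followed in 9. All 12 detected H4 genes carried a stem that starts with GGCCC, as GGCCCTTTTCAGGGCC in 9 and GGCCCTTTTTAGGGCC in 3, and 0 genes of the other types did. HIST2H2AC, HIST1H2AG and HIST1H2AK each had a core found in no other detected member. The 9 coding genes with the motif outside these symbols included H2AX, the current name of the replacement histone gene H2AFX. A match is a description of the reference sequence and was not read from the libraries.

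The values are FPKM, fragments scaled to transcript length and to library size, as Cuffdiff gave them to the authors. How library size was set is not given in the sources used here. Since no counts were given, the depth is unknown and no counting intervals can be set. The FPKM of all genes summed to 805816 and 971102 in the WT libraries and to 535973 and 568279.5 in the TXNDC9-KO libraries. The label HepG2 did not match the data. All 15 hepatoma markers, among them ALB, AFP, APOA1, TTR and HNF4A, were under 0.5 FPKM in every library, 4 were at 0 throughout, and their summed level was 0.581 and 0.733 FPKM in WT and 0.217 and 0.365 FPKM in TXNDC9-KO. The summed level of 10 fibroblast and endothelial markers was 54.9 and 50.8 FPKM in WT and 42.8 and 37.9 FPKM in TXNDC9-KO, with KDR and COL1A2 at 0 in all libraries. Most of that sum was COL1A1 (log2 fold change −0.49) and COL3A1 (−0.70), collagen genes that were not called. PDGFRB, a growth factor receptor (1.08 and 0.735 FPKM in WT, 3.004 and 2.617 FPKM in TXNDC9-KO), and CDH5, an endothelial cadherin (0.751 and 1.07 against 4.26 and 3.14 FPKM), were called higher, with log2 fold changes of 1.55 and 1.92, and remained so after rescaling to TPM and after correction for length and GC content. That of blood cell markers ran from 0.663 to 1.97 FPKM, with CD3E and HBB at 0. The cells are therefore called by their label only. What cells these were was not tested. TXNDC9 itself was 35.1 and 37.3 FPKM in WT and 21.9 and 27.6 FPKM in TXNDC9-KO. The log2 fold change was −0.55 (SE 0.14, Benjamini-Hochberg adjusted p = 0.0145 by limma). It was therefore not called, and it turned to 0.12 when libraries were rescaled to the same sum. The paper judged the knockout by western blot, where it reported reduced TXNDC9 protein, which RNA values do not measure.

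Most histone genes were low. Of the 59, 42 were detected in all 4 libraries and 5 in 1 library, and 19 stayed under 1 FPKM in every library. Only 6 had a mean over 10 FPKM, and 2 of these, HIST1H1C and HIST1H2BK, were above 100 FPKM. Together this pair made 72.9% and 73.9% of the summed level of all members in the WT libraries and 57.4% and 60.7% in the TXNDC9-KO libraries. At the other end, HIST1H3E was seen in WT replicate 1 alone, at 0.0192 FPKM. The plot of levels by library shows the 31 members with a mean over 1 FPKM, which were tested.

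**Figure D1:**
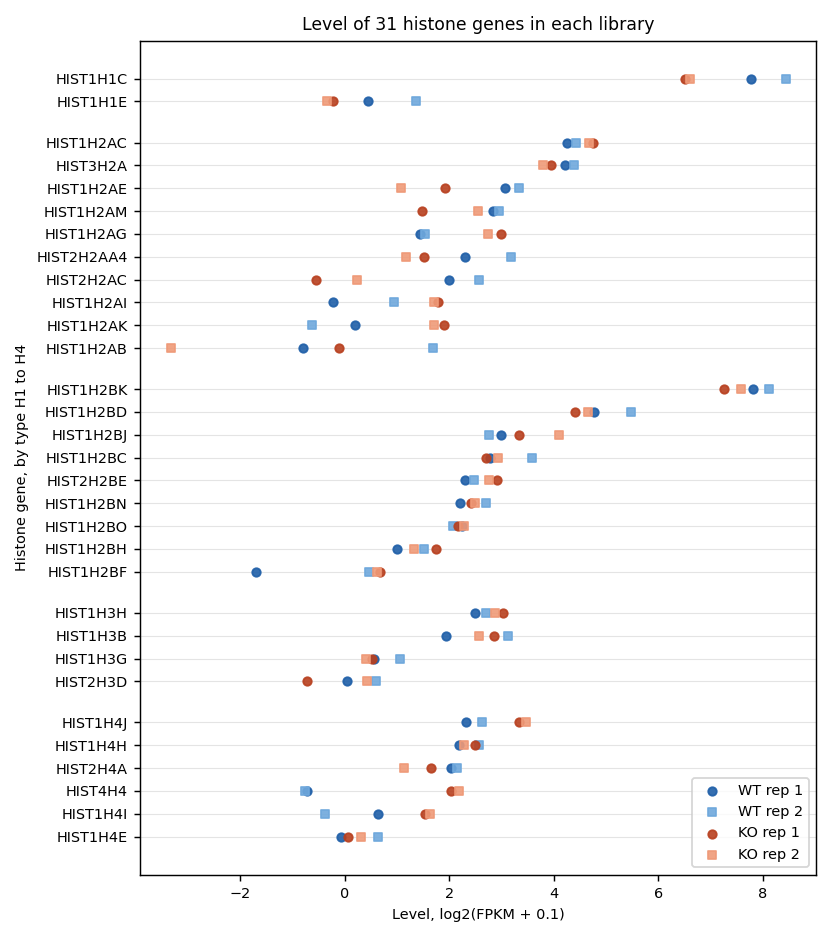
Level of the 31 tested histone genes in each of the 4 libraries, as log2(FPKM + 0.1) on the horizontal axis, with genes grouped by type from H1 at the top to H4 and ordered by mean within a type; blue points are WT and red points TXNDC9-KO, circles replicate 1 and squares replicate 2. HIST1H1C and HIST1H2BK stand apart from the other genes, and in HIST4H4 both TXNDC9-KO points lie far to the right of both WT points.

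The members moved in both directions. Tested with limma on log2(FPKM + 0.1) among 13246 genes with a mean over 1 FPKM, and called where the adjusted p was under 0.01 with at least a 2-fold change, 4 of the 31 fell in TXNDC9-KO, HIST2H2AC, HIST1H2AE, HIST1H1C and HIST2H2AA4. This is to be read against 15.3% of all tested genes called lower. A further 3 rose, HIST4H4, HIST1H2AK and HIST1H2AG, against 14.2% of all tested genes called higher, and 24 were not called. Neither share exceeded that of all genes. Both TXNDC9-KO values lay below both WT values in 11 members and above them in 11, where 45.9% and 40.1% of all tested genes did so, and in 9 members the groups overlapped. The median log2 fold change was −0.00026 over the 31 members and −0.09 over all tested genes. The other 28 detected members had a mean of 1 FPKM or less and were not tested, so the 31 are not all members. Without TXNDC9-KO replicate 1 or without replicate 2, 0 of the 13246 tested genes had an adjusted p under 0.01 by limma. At an unadjusted p under 0.05 these fits had 7 and 6 members lower and 6 and 5 higher, against 9 lower and 10 higher with all libraries. Without WT replicate 2, 2 members were called lower and 6 higher. In bulk RNA a lower level per cell and fewer cells in the phase that expresses these genes cannot be told apart.

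**Figure D2:**
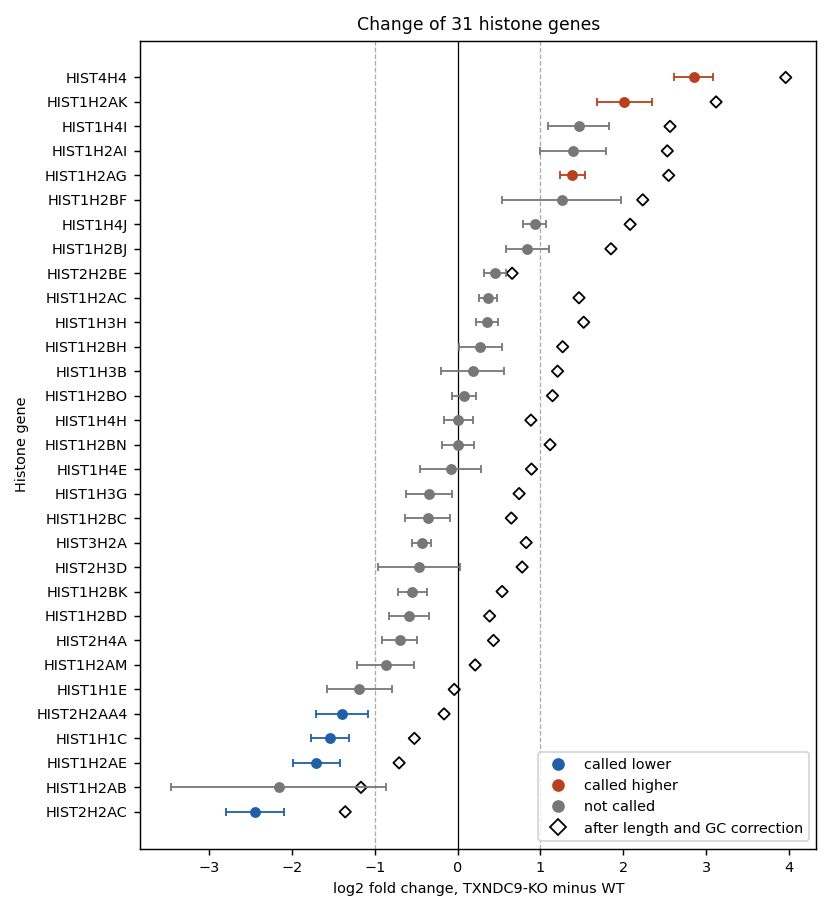
Log2 fold change (TXNDC9-KO minus WT) of the 31 tested histone genes from the limma fit, on the log2(FPKM + 0.1) scale, with bars of 1 standard error; filled points are blue where called lower, red where called higher and grey otherwise, open diamonds give the estimate after correction for transcript length and GC content, and dashed lines mark a 2-fold change. Values run from −2.45 in HIST2H2AC to 2.85 in HIST4H4, and the diamonds lie to the right of the points.

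Transcript length and GC content moved with the result. The canonical transcripts of the tested members were 389 to 2224 nt long (median 493 nt, 30 of 31 under 1000 nt), against a median of 2865 nt among all tested genes, and their median GC content was 58.3% against 48.6%. Among the 1836 tested genes under 1000 nt of any kind the median log2 fold change was −0.84, and 34.2% were called lower and 8.88% higher. After each library was corrected for length and GC content, 0 members were lower by limma (2 at an unadjusted p under 0.05) and 12 higher, with 6.24% of all genes called lower and 6.97% higher. The corrected estimates were positive in 25 of 31 members, with a median of 0.88 against 0.01 over all genes. The correction took the canonical lengths, and the polyadenylated transcripts of these genes may be longer, so the corrected values rest on lengths that were not tested. Rescaling each library to a fixed sum (TPM) moved the median of all genes from −0.09 to 0.59, so falls of less than about that shift change sign under it, and it left 1 member lower and 10 higher, with 3.37% and 33.1% of all genes. The part of length and GC content in these changes was not tested further.

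H1, the linker histones, had 4 detected genes of 6. HIST1H1C (chr6:26055740-26056470, minus strand), which encodes H1.2, was 218 and 347 FPKM in WT and 91.4 and 97.7 FPKM in TXNDC9-KO. The TXNDC9-KO values were less than 50% of either WT value, although the WT libraries themselves were far apart. The means were 282 ± 91.5 and 94.6 ± 4.44 FPKM (SD, n = 2). On the log2 scale the change was −1.54 (SE 0.23, adjusted p = 0.0022 by limma). It was −0.86 after rescaling to TPM and −0.52 after the length and GC correction, and was called in neither. HIST1H1E, which encodes H1.4, was 1.26 and 2.47 FPKM in WT and 0.753 and 0.694 FPKM in TXNDC9-KO, and was not called (log2 fold change −1.19, adjusted p = 0.037 by limma). HIST1H1B, at 0.322 to 0.725 FPKM, and HIST1H1A, at 0 to 0.352 FPKM, were too low to test, and their groups overlapped.

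H2A had 16 detected genes and 10 tested, and it held 5 of the 7 called changes. HIST2H2AC (chr1:149886918-149887411, plus strand) showed the largest fall of any tested member, from 3.88 and 5.86 FPKM to 0.581 and 1.07 FPKM. Both TXNDC9-KO libraries were well under both WT libraries. The log2 fold change was −2.45 (SE 0.35, adjusted p = 0.0019 by limma), and HIST2H2AC alone among the fallen members was still called after rescaling to TPM (−1.84). After the correction it was −1.36 (adjusted p = 0.014 by limma) and was not called. HIST1H2AE was 8.31 and 9.98 FPKM in WT and 3.66 and 2.01 FPKM in TXNDC9-KO, with a log2 fold change of −1.71 (SE 0.29, adjusted p = 0.0033 by limma), which became −1.05 after rescaling to TPM and −0.71 after the correction. HIST2H2AA4 was 4.81 and 9.01 FPKM in WT and 2.77 and 2.16 FPKM in TXNDC9-KO (log2 fold change −1.39, adjusted p = 0.0097 by limma, −0.74 after rescaling to TPM and −0.17 after the correction). Its copy HIST2H2AA3 shares nearly all of its 50-base words (99.8%) and was listed at 0.109 FPKM in WT replicate 1 and at 0 elsewhere, so how reads were divided between the copies is uncertain.

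The H2A genes that rose were lower in WT than those that fell, an order that the filter and the calls partly fix. HIST1H2AK (chr6:27837880-27838375, minus strand) was 1.05 and 0.550 FPKM in WT and 3.62 and 3.16 FPKM in TXNDC9-KO. With a WT mean of 0.799 FPKM it passed the filter of a mean over 1 FPKM only through TXNDC9-KO. HIST1H2AG was 2.61 and 2.81 FPKM in WT and 7.90 and 6.59 FPKM in TXNDC9-KO. In both genes the groups were far apart compared with the spread within them. The log2 fold changes were 2.01 (SE 0.33, adjusted p = 0.0032 by limma) and 1.38 (SE 0.15, adjusted p = 8.9e-04 by limma), and both remained called after rescaling to TPM and after the correction. HIST1H2AI, at 0.752 and 1.81 FPKM in WT and 3.33 and 3.19 FPKM in TXNDC9-KO, missed the threshold (log2 fold change 1.39, adjusted p = 0.023 by limma), was called after rescaling to TPM (2.07) and after the correction (2.53), and shares 63.5% of its words with other histone genes.

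The remaining H2A genes gave smaller or less certain differences. HIST1H2AC, the highest H2A gene, was 19.0 and 21.5 FPKM in WT and 26.7 and 25.5 FPKM in TXNDC9-KO, without overlap but short of both thresholds (log2 fold change 0.37, adjusted p = 0.027 by limma). It was called higher after rescaling to TPM (1.05) and after the correction (1.46). HIST3H2A, of the HIST3 cluster, was 18.6 and 20.9 FPKM in WT and 15.3 and 13.8 FPKM in TXNDC9-KO, with a log2 fold change of −0.43 that became 0.24 after rescaling to TPM and 0.83 after the correction. HIST1H2AM was 7.02 and 7.62 FPKM in WT and 2.69 and 5.80 FPKM in TXNDC9-KO, where the knockout libraries differed from each other by about as much as the groups did. HIST1H2AB had the second largest fall by size (log2 fold change −2.17, SE 1.30, adjusted p = 0.19 by limma), but at 0.474 and 3.14 FPKM in WT and 0.825 and 0 FPKM in TXNDC9-KO its groups overlapped. The 6 untested H2A genes peaked at 0.109 to 1.72 FPKM.

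H2B had 17 detected genes, 9 of them tested, and 0 called by limma, with 3 at an unadjusted p under 0.05 and a median log2 fold change of 0.07 over the 9. HIST1H2BK (chr6:27146361-27146855, minus strand) had the highest mean level of all members. It shares 57.2% of its words with other histone genes, so how reads were assigned to it is uncertain. It was 225 and 280 FPKM in WT and 154 and 191 FPKM in TXNDC9-KO. The groups did not overlap, but the gap between them was smaller than the spread within WT. The log2 fold change of −0.55 (SE 0.17, adjusted p = 0.032 by limma) turned to 0.13 after rescaling to TPM and to 0.54 after the correction. HIST1H2BD was 27.3 and 44.6 FPKM in WT and 21.2 and 25.2 FPKM in TXNDC9-KO, and its log2 fold change of −0.59 (adjusted p = 0.073 by limma) likewise changed sign, to 0.086 and 0.39.

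HIST1H2BJ went the other way, at 7.87 and 6.72 FPKM in WT and 9.96 and 17.2 FPKM in TXNDC9-KO. Its groups did not overlap, but the knockout libraries stood far apart, and the log2 fold change of 0.84 (SE 0.26, adjusted p = 0.031 by limma) was not called. HIST2H2BE was 4.83 and 5.47 FPKM in WT and 7.45 and 6.72 FPKM in TXNDC9-KO (log2 fold change 0.45, adjusted p = 0.024 by limma). HIST1H2BC was 6.75 and 11.9 FPKM in WT and 6.41 and 7.53 FPKM in TXNDC9-KO, with overlapping groups and a log2 fold change of −0.36 that turned to 0.31 after rescaling to TPM and 0.65 after the correction. The other 4 tested H2B genes, HIST1H2BN, HIST1H2BO, HIST1H2BH and HIST1H2BF, had log2 fold changes of 0.00, 0.07, 0.27 and 1.26. After rescaling to TPM, HIST1H2BJ (1.52) and HIST2H2BE (1.13) were called higher. After the correction HIST1H2BJ (1.85), HIST1H2BN (1.12), HIST1H2BO (1.14) and HIST1H2BH (1.27) were. The 8 untested ones stayed at or under 1.06 FPKM.

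H3 had 10 detected genes, of which 4 were tested and 0 called by limma, with 1 at an unadjusted p under 0.05. HIST1H3H, which had the highest mean of them, was 5.51 and 6.43 FPKM in WT and 8.09 and 7.22 FPKM in TXNDC9-KO (log2 fold change 0.35, adjusted p = 0.060 by limma). It was called higher after rescaling to TPM (1.03) and after the correction (1.52). HIST1H3B was 3.73 and 8.64 FPKM in WT, a range that held both TXNDC9-KO values, 7.10 and 5.87 FPKM. HIST1H3G, at 1.37 and 1.98 FPKM in WT and 1.33 and 1.22 FPKM in TXNDC9-KO, and HIST2H3D, at 0.930 and 1.42 FPKM in WT and 0.503 and 1.25 FPKM in TXNDC9-KO, had log2 fold changes of −0.35 and −0.47, which became 0.30 and 0.14 after rescaling to TPM. HIST2H3D shares 63.6% of its words with other histone genes.

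H4 had 12 detected genes, of which 6 were tested and 1 was called. HIST4H4 (chr12:14767999-14771131, minus strand), the only gene of the HIST4 locus, was 0.508 and 0.492 FPKM in WT and 4.02 and 4.46 FPKM in TXNDC9-KO. Replicates agreed to within 0.5 FPKM in both groups while the means differed by several FPKM. The log2 fold change of 2.85 (SE 0.23, adjusted p = 5.5e-04 by limma) was the largest rise of any tested member, and was 3.55 after rescaling to TPM and 3.96 after the correction. HIST1H4J, at 4.91 and 6.07 FPKM in WT and 10.01 and 10.98 FPKM in TXNDC9-KO, passed the adjusted p (0.0025 by limma) but fell short of a 2-fold change (log2 fold change 0.93). It was called higher after rescaling to TPM (1.61) and after the correction (2.08), and 92.1% of its words occur in other histone genes.

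HIST1H4I was 1.45 and 0.669 FPKM in WT and 2.81 and 3.01 FPKM in TXNDC9-KO, without overlap. Its log2 fold change of 1.46 (SE 0.37, adjusted p = 0.015 by limma) was large enough but missed the threshold, and it was called after rescaling to TPM and after the correction. HIST1H4H, at 4.47 and 5.87 FPKM in WT and 5.56 and 4.78 FPKM in TXNDC9-KO, had overlapping groups (log2 fold change 0.01). HIST2H4A was the 1 H4 gene among the 4 highest that was lower, at 4.01 and 4.35 FPKM in WT and 3.05 and 2.09 FPKM in TXNDC9-KO (log2 fold change −0.70, adjusted p = 0.029 by limma, −0.04 after rescaling to TPM and 0.43 after the correction). HIST2H4B is an identical copy, sharing 100% of its words, and was listed at 0.0743 FPKM or less, so the division of reads between this pair is uncertain as well.

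Summed over all 59 members the level was 607 and 848 FPKM in WT and 427 and 475 FPKM in TXNDC9-KO, a ratio of 0.620 between the group means. Without HIST1H1C and HIST1H2BK the sums were 165 and 222 FPKM in WT and 182 and 187 FPKM in TXNDC9-KO, a ratio of 0.955 with both TXNDC9-KO values inside the WT range. In FPKM the difference in the total therefore lay in that pair. Relative to the sum of all FPKM (TPM) the totals did not differ in this way, at 753 and 874 in WT and 798 and 836 in TXNDC9-KO, a ratio of 1.004 with overlapping groups. Without the pair they were 204 and 228 TPM in WT and 340 and 328 TPM in TXNDC9-KO, a ratio of 1.54. By type, the ratio was 0.336 for H1, 0.860 for H2A, 0.740 for H2B, 1.02 for H3 and 1.40 for H4. After rescaling to TPM these became 0.548, 1.39, 1.19, 1.66 and 2.26, so that H2A and H2B changed direction, while the order from H1 to H4 as the lowest and highest ratios stayed.

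The make-up of the histone RNA differed between the groups in a way that the scaling of a library cannot change. H1 made 36.2% and 41.3% of the summed level of the members in WT and 21.7% and 20.8% in TXNDC9-KO. H4 made 2.81% and 2.70% in WT and 6.63% and 5.79% in TXNDC9-KO, and H3 2.36% and 2.56% against 4.47% and 3.73%. H2B held 47.1% and 43.2% in WT and 50.8% and 56.0% in TXNDC9-KO, and H2A 11.6% and 10.2% against 16.4% and 13.7%. HIST1H1C alone made 98.6% to 99.1% of H1 in each library, and the other shares move with it. Among the members other than H1, a denominator chosen after the values were seen, H2B made 73.8% and 73.6% in WT and 64.9% and 70.7% in TXNDC9-KO, the opposite direction. H4 was still higher in TXNDC9-KO, at 4.403% and 4.606% against 8.46% and 7.31%, as was H3, at 3.70% and 4.37% against 5.71% and 4.71%, while H2A overlapped. For shares of all members the groups did not overlap in any of the 5 types, but with 2 libraries against 2 an exact permutation test cannot give a p below 0.333, and shares of 1 sum are tied to each other.

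**Figure D3:**
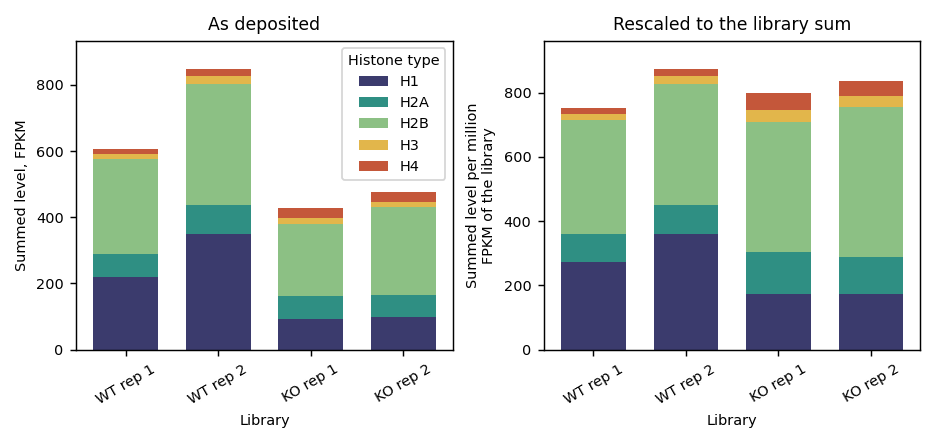
Summed level of the 59 detected histone genes in each library, stacked by histone type, in FPKM as deposited (left) and relative to the sum of all FPKM in the library (right). The H1 part shrinks from 220 and 350 FPKM in WT to 92.7 and 99.0 FPKM in TXNDC9-KO, and the 4 totals come closer together on the right.

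The WT libraries differed from each other. WT replicate 2 was above WT replicate 1 in 26 of the 31 tested members, with a median log2 ratio of 0.39 against 0.09 over all tested genes, while TXNDC9-KO replicate 2 was above replicate 1 in 14 of 31 (median −0.06 against 0.06). Without WT replicate 1 the median log2 fold change of the members was −0.41, and without WT replicate 2 it was 0.20.

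The genes were also compared by the extent of their annotated transcripts. Of the 57 coding members detected, 18 were classed as longer-ended and 39 were not. The class took a transcript ending more than 300 bases past the stop codon in GENCODE or a RefSeq span of more than 1000 bases. A span does not show on which side of the stem-loop a gene is longer. HIST1H2BK and HIST1H3D entered by the span alone. The median of the mean levels was 5.30 FPKM for the 18 and 0.984 FPKM for the 39, and 7 of the 10 highest members were among the 18. HIST1H1C, at a mean of 188 FPKM, met neither criterion. Of the 18, 12 were tested and 1 rose (HIST4H4), and of the 39, 19 were tested, 4 fell and 2 rose, against 15.3% of all tested genes called lower and 14.2% higher. The difference between the classes was not tested. The summed level of the 18 was 329 and 418 FPKM in WT and 269 and 314 FPKM in TXNDC9-KO, and that of the 39 was 278 and 431 FPKM in WT and 158 and 161 FPKM in TXNDC9-KO. Of the sum of the 18, HIST1H2BK was 225 and 280 FPKM in WT and 154 and 191 FPKM in TXNDC9-KO. The longer-ended genes thus made 54.2% and 49.2% of the summed member level in WT and 63.0% and 66.1% in TXNDC9-KO. That rise rested on HIST1H1C, since without it, a choice made after the values were seen, their share was 84.5% and 83.3% in WT and 80.1% and 83.2% in TXNDC9-KO.

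Adjacent H2A and H2B genes that share a start region allowed a comparison within a locus. Of 14 such pairs, with start sites 500 bases or less apart, 5 had both genes tested. The sequences between the start sites of the 3 among these 5 that held a called gene are shown, on the plus strand of hg38, with the TATA box (TATAAA), the CCAAT box and the octamer ATTTGCAT in capitals where they occur on either strand. In HIST1H2BJ and HIST1H2AG 2 of the TATA matches overlap.
HIST2H2BE and HIST2H2AC (chr1:149886683-149886917): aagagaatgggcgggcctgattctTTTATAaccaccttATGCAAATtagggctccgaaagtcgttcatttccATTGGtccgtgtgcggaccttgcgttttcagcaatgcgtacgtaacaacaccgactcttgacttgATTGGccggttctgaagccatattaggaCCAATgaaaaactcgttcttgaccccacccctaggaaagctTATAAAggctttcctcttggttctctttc
HIST1H2BJ and HIST1H2AG (chr6:27132796-27133042): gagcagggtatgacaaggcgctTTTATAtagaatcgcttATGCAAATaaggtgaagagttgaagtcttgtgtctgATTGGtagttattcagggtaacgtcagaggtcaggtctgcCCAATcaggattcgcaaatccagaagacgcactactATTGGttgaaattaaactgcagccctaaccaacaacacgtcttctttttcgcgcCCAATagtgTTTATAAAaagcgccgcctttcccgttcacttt
HIST1H2AK and HIST1H2BN (chr6:27838376-27838568): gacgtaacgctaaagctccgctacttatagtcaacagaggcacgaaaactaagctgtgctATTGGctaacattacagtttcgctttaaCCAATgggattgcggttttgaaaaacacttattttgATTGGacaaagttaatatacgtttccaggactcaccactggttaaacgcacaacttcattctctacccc

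The pairs differed in how far their partners moved together. Across the 235 bases of the first, HIST2H2BE was not called (log2 fold change 0.45) while HIST2H2AC fell (−2.45). The log2 ratio of HIST2H2AC to HIST2H2BE was −0.31 and 0.10 in WT and −3.47 and −2.54 in TXNDC9-KO, a ratio that library scaling does not touch. The partners differ in length (494 and 2224 nt) and GC content (58.3% and 47.9%). After the length and GC correction their log2 fold changes were −1.36 and 0.66, and neither was called. Of HIST1H2AK and HIST1H2BN, the former rose (2.01) while the latter had a log2 fold change of 0.00. The log2 ratio of HIST1H2BN to HIST1H2AK went from 1.999 and 3.334 in WT to 0.53 and 0.78 in TXNDC9-KO. After the length and GC correction HIST1H2AK (3.12) and HIST1H2BN (1.12) were both called higher. HIST1H2AG (1.38) was called higher and HIST1H2BJ (0.84) was not, but both were higher in both TXNDC9-KO libraries than in either WT library, both were called higher after rescaling to TPM (2.06 and 1.52) and after the correction (2.55 and 1.85), and their ratio overlapped between the groups. In the other 2 pairs, HIST1H2AC with HIST1H2BC and HIST1H2BO with HIST1H2AM, neither gene was called. Their ratios were higher in both TXNDC9-KO libraries than in both WT libraries, with differences of 0.73 and 0.95 between the log2 fold changes.

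**Figure D4:**
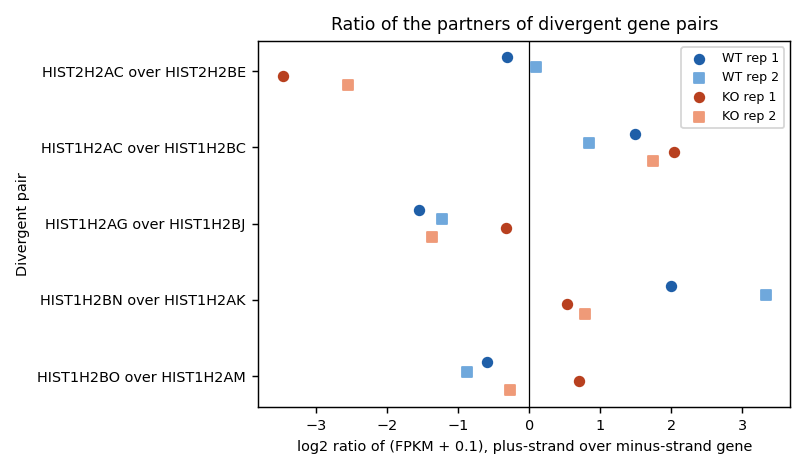
Log2 ratio of the plus-strand to the minus-strand gene, both as FPKM + 0.1, for the 5 divergent pairs with both genes tested, with 1 point per library; blue is WT, red TXNDC9-KO, circles replicate 1 and squares replicate 2. HIST2H2AC over HIST2H2BE lies near 0 in WT and at −3.47 and −2.54 in TXNDC9-KO.

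The same motifs were counted in RefSeq promoters, which hold 250 bases upstream and 50 bases downstream of the start, of 53 detected members that had one, against 35116 promoters in the table. CCAAT, on either strand, was in 84.9% of the members and 34.6% of all promoters. TATAAA on the coding strand was in 54.7% against 7.33%, and ATTTGCAT on either strand in 41.5% against 1.77%. The octamer was in 10 of 15 H2A and 11 of 15 H2B promoters and in 0 of 10 H4 promoters, and CCAAT was in all H1, H2A, H2B and H3 promoters but in 2 of 10 H4 promoters. Since H2A and H2B pairs share their start region, these promoters overlap and are not independent. HIST1H2AK and HIST1H2BN share a region without the octamer and without TATAAA, and no other pair with both genes tested lacks either. These are matches of letters, not sites of binding.

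Replacement histones, which most often carry poly(A) tails, were far more abundant. Their summed level over 12 genes was 2937 and 3396 FPKM in WT and 2076 and 2124 FPKM in TXNDC9-KO, and the replication-dependent members made 17.1% and 19.99% of the joint sum in WT and 17.1% and 18.3% in TXNDC9-KO. Of 10 tested, 2 fell and 0 rose (median log2 fold change −0.38), against 15.3% and 14.2% of all tested genes. H2AFX, which encodes the H2A.X variant and has the stem-loop motif, was 226 and 238 FPKM in WT and 59.2 and 63.97 FPKM in TXNDC9-KO, the larger fall (log2 fold change −1.91, adjusted p = 4.9e-04 by limma, and −1.24 after rescaling to TPM). H2AFJ fell from 410 and 639 FPKM to 190 and 186 FPKM (log2 fold change −1.45). After the length and GC correction neither was called. H3F3A, the highest of the list, and H2AFZ had log2 fold changes of −0.53 and −0.36, which became 0.15 and 0.32 after rescaling to TPM.

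Genes that act on histone pre-mRNA were read from a fixed list of 21 for 3′ end processing, of which 7 fell, 3 rose and 11 were not called (median log2 fold change −0.31). The counts of this and the following lists are to be read against 15.3% of all tested genes called lower and 14.2% higher, which become 3.37% and 33.1% after rescaling to TPM and 6.24% and 6.97% after the correction. SLBP was 65.7 and 72.8 FPKM in WT and 52.8 and 61.2 FPKM in TXNDC9-KO and was not called (log2 fold change −0.28, adjusted p = 0.089 by limma, and 0.40 after rescaling to TPM). The 3 that rose, CASP8AP2, NPAT and LSM11, are proteins of the histone locus body, where these genes are transcribed, or of the U7 particle. CASP8AP2 went from 2.45 and 2.93 FPKM to 11.7 and 10.8 FPKM, a log2 fold change of 2.03 (adjusted p = 5.1e-04 by limma), NPAT from 4.06 and 2.52 to 8.03 and 8.16 FPKM (1.31), and LSM11 from 2.59 and 2.79 to 5.61 and 5.72 FPKM (1.05). LSM10, the partner of LSM11, fell, with a log2 fold change of −1.32. SNRPD3, SNRPG and SNRPF, which also belong to the Sm rings of the spliceosome, fell by 1.47, 1.23 and 1.19 on the log2 scale, as did SYMPK, SRRT and NELFE, while SNRPB was not called (−0.73). Rescaling to TPM left 0 of the list lower and 4 higher, and the length and GC correction 2 lower and 1 higher. After that correction CASP8AP2 was still called higher (1.12), while NPAT (0.38), LSM11 (0.29) and LSM10 (−0.27) were not called.

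Among 10 genes of histone mRNA turnover and export, 1 fell, 1 rose and 8 were not called. XRN1, a 5′ to 3′ exonuclease, was 1.27 and 1.37 FPKM in WT and 8.26 and 7.19 FPKM in TXNDC9-KO (log2 fold change 2.46, adjusted p = 5.1e-04 by limma). MIF4GD, which binds SLBP, was 38.1 and 43.8 FPKM in WT and 19.7 and 19.9 FPKM in TXNDC9-KO (log2 fold change −1.04). LSM1 and EXOSC10, the highest of the list, had log2 fold changes of −0.80 and −0.88 and were not called. Of 20 factors of cleavage and polyadenylation, the machinery behind poly(A) tails, 3 fell and 0 rose (median log2 fold change 0.07), and 17 were not called. CPSF1 went from 108 and 137 FPKM to 33.1 and 34.5 FPKM (log2 fold change −1.85), and PABPN1 and SYMPK had log2 fold changes of −1.18 and −1.28. After rescaling to TPM 1 of the 20 was lower and 6 higher, and after the length and GC correction 4 were lower and 0 higher. PABPN1 and SYMPK were called in neither.

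Histone chaperones, which carry histones to DNA, had 1 lower and 4 higher genes of 23 tested (median log2 fold change −0.29), against 15.3% and 14.2% of all tested genes. ATRX, which acts with DAXX to deposit H3.3, was 7.70 and 6.93 FPKM in WT and 36.1 and 31.7 FPKM in TXNDC9-KO (log2 fold change 2.20, adjusted p = 4.9e-04 by limma). MMS22L went from 5.76 and 5.38 FPKM to 16.4 and 19.3 FPKM (1.66) while its partner TONSL fell from 29.9 and 31.6 to 13.7 and 12.8 FPKM (−1.21), and UBN1 and UBN2 rose. NAP1L1 and RBBP7, the highest, were not called (−0.69 and −0.20, the latter 0.49 after rescaling to TPM). After the length and GC correction 1 of the 23 was lower and 0 higher. The lower gene was then NAP1L1 (−1.95), while TONSL (−0.72) was not called.

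S phase genes, which accompany the expression of these histones in the cell cycle, were mostly not called, with 2 lower and 1 higher of 28 and a median log2 fold change of −0.07. GINS4, a part of the replicative helicase, rose from 6.65 and 4.01 FPKM to 20.2 and 23.7 FPKM (log2 fold change 2.06), and LIG1 and CDT1 fell (−1.30 and −1.26). PCNA and RRM1, the highest, had log2 fold changes of −0.30 and 0.16. Rescaling to TPM made 0 lower and 10 higher, near the 33.1% of all tested genes called higher then. The share of cells in S phase cannot be read from these libraries. From DNA content, the paper reported an arrest in G0/G1 in its TXNDC9 knockout cells. How far that bears on the histone values was not tested.

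How far RNAs without a poly(A) tail entered the libraries was read from a list of 27 gene symbols, several of which have 2 rows. Of the rows, 16 were at 0 in all libraries and 10 were tested. A row of RN7SK, the RNA component of a transcription regulator, was called lower, at 43.5 and 184 FPKM in WT and 5.99 and 6.91 FPKM in TXNDC9-KO (log2 fold change −3.78, adjusted p = 0.0032 by limma). Its second row went the other way, at 0.00295 and 7.93 FPKM in WT and 18.0 and 9.16 FPKM in TXNDC9-KO, and was not called, so how reads were divided is uncertain. RN7SL1 was 73.9 and 240 FPKM in WT and 215 and 143 FPKM in TXNDC9-KO and RN7SL2 92.8 and 146 against 186 and 130 FPKM, with overlapping groups. A row of RMRP, at 6.66 and 0.0053 FPKM in WT and 18.7 and 13.5 FPKM in TXNDC9-KO, had the largest difference of the list (log2 fold change 4.24, adjusted p = 0.080 by limma). The second row of RMRP was 0.00051 and 81.4 FPKM in WT and 14.8 and 9.34 FPKM in TXNDC9-KO, with overlapping groups. How reads were divided between these rows is uncertain as well. The summed level of the list was 245 and 744 FPKM in WT and 501 and 398 FPKM in TXNDC9-KO. WT replicate 2 was the highest here, as it was for the histone members and for the summed FPKM of all genes. WT replicate 1 was the lowest here, but for the histone members it was above both TXNDC9-KO libraries (607 against 427 and 475 FPKM). The part of such carry-over in the histone values was not tested.

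**Figure D5:**
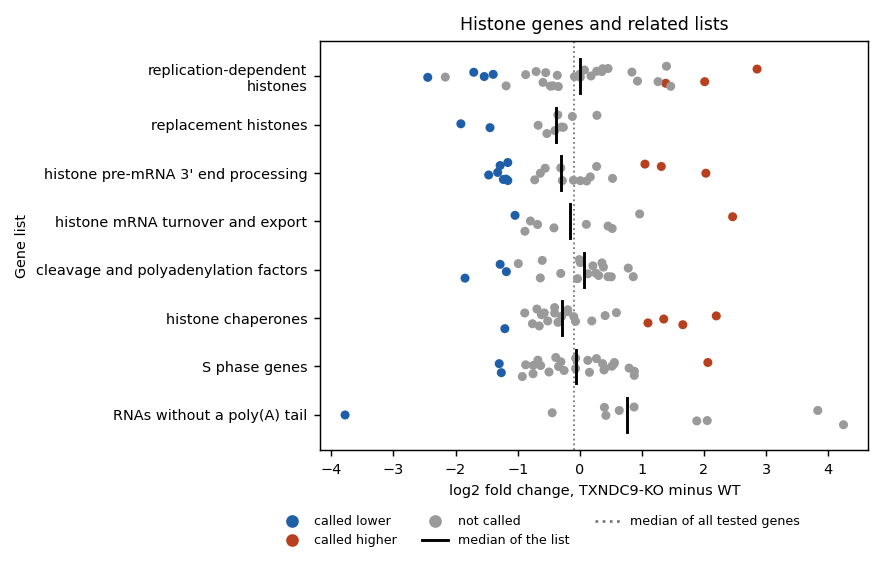
Log2 fold change (TXNDC9-KO minus WT) of each tested gene in the histone members and in 7 related lists, with 1 point per gene, blue where called lower, red where called higher and grey otherwise; black bars are the medians of the lists and the dotted line is the median of all tested genes, −0.09. Points are spread vertically only for legibility, and the histone members reach from −2.45 to 2.85.

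Some values are uncertain by construction. Of the detected members, 12 (6 tested) share over 50% of their 50-base words with other histone genes, and 28 (12 tested) overlap another annotated gene. The sources used here do not say whether reads were assigned by strand, so for these genes the reads of neighbours cannot be told apart.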

How the data were processed

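Polyadenylated RNA was sequenced on the Illumina HiSeq platform in 2 WT and 2 TXNDC9-KO libraries. For the mapping, to hg38 and an Ensembl annotation without a search for new junctions, the authors used TopHat2. They deposited 1 FPKM value for each gene in each library, computed with Cuffdiff of the Cufflinks suite. Versions, strand settings and how libraries were normalized are not given in the sources used here. The deposited table also holds the authors' own averages, fold changes, p-values and q-values, which were not used.

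The table had 231916 lines, of which 57979 held values, and each identifier stood on 4 lines out of register with the symbols. After the identifiers were put back in order, 34949 of 56935 found in the reference name table had the same symbol, against 1 before. The histone rows were matched to GENCODE release 44 on hg38, 70 of 76 by identifier and 6 by an older symbol in RefSeq, which also gave the promoters (build GRCh38.p14).

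The 13246 genes with a mean over 1 FPKM were transformed to log2(FPKM + 0.1) and fitted with limma (version 3.58.1, R 4.3.3) using its variance trend, and p-values were adjusted by the Benjamini-Hochberg method. Low genes have compressed fold changes on that scale. Of the called genes named here, HIST4H4, HIST1H2AK, PDGFRB and CDH5 had WT means under 1 FPKM and passed the filter only through TXNDC9-KO. HIST2H2AC had a TXNDC9-KO mean under 1 FPKM and passed only through WT. As in the study, calls needed an adjusted p under 0.01 and at least a 2-fold change. The fit used all 4 libraries and no block. Depth is unknown, since FPKM are not counts, so no intervals or floors are given. The steps were tested on simulated data.

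Alternatives were pseudocounts of 1 and 0.01, no filter or a mean over 5 FPKM, an adjusted p under 0.05, no variance trend, centring on the median, rescaling to a fixed sum (TPM), a loess correction (span 0.3) for transcript length and GC content, made per library over 13114 genes, the replicate number as a block, and leaving out each library. Members sharing over 50% of their 50-base words with other histone genes were called uncertain. The members and lists were chosen with earlier results of these data known, so no test over a list was made. Genes were named by a rule: in each histone type the 4 highest members, the 5 largest falls and rises among tested members, the members with the lowest and highest maximum, SLBP, TXNDC9, and in each list the 2 largest changes and the 2 highest levels. Other members and list genes were named after their values were seen. Python 3.11.15, pandas 2.3.3, numpy 2.4.6 and matplotlib 3.10.9 were used.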

Additional observations from a re-analysis of the deposited data

Results flagged for a closer look

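HIST1H2APS4, an H2A pseudogene symbol outside the genes described above, was at 0 in both WT libraries and at 0.243 and 0.432 FPKM in the TXNDC9-KO libraries, a mean of 0.338 FPKM. It is given because a signal appeared in the knockout libraries in a row that no comparison used and that was at 0 in the control libraries. It was too low to test.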

How the results depend on the processing

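With 2 libraries a group, leaving one out leaves a lone library that is assumed to vary like the others. Against 4 lower and 3 higher histone genes, the counts were 0 lower without a filter (59 members tested), 2 and 0 with a mean over 5 FPKM (15 tested), 1 and 10 after rescaling to TPM, 0 and 12 after the length and GC correction, and 0 and 11 with that correction and the replicate block. Higher calls were 5 at an adjusted p under 0.05. The deviations of same-numbered libraries had a correlation of −0.0904, which with 2 libraries a group cannot show whether they were paired. With the replicate block 4 members were lower and 5 higher. Among all tested genes 7672 had an adjusted p under 0.01 by limma with the block, against 6732 without it. Leaving out 1 library at a time gave between 0 and 5 lower and between 0 and 6 higher members. Dropping either TXNDC9-KO library left 0 calls in the members and lists, and without WT replicate 2 there were 2 lower and 6 higher. The related lists had 16 lower and 9 higher genes, which became 3 and 32 after rescaling to TPM, 7 and 4 after the correction, 7 and 5 with the block added, and ranged from 0 to 21 and from 0 to 14 with a library left out. The median of the members was 0.67 after rescaling to TPM, 0.88 after the correction with or without the block, and from −0.41 to 0.20 with a library left out. TXNDC9 was at 0.12 after rescaling to TPM. The summed ratios after it were 0.548 for H1, 1.39 for H2A, 1.19 for H2B, 1.66 for H3 and 2.26 for H4.

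Among the members named by rule, log2 fold changes changed sign as follows, and the cause was not tested. After rescaling to TPM they were HIST3H2A 0.24, HIST1H2BK 0.13, HIST1H2BD 0.086, HIST1H2BC 0.31, HIST1H3G 0.30 and HIST2H3D 0.14. After the correction, with or without the block, they were HIST3H2A 0.83, HIST1H2AM 0.21, HIST1H2BK 0.54, HIST1H2BD 0.39, HIST1H2BC 0.65, HIST1H3G 0.74, HIST2H3D 0.78 and HIST2H4A 0.43. Of the other members HIST1H4E, at −0.087, became 0.55 and 0.89, and HIST1H2BN, at 0.00, became 0.67 and 1.12. HIST1H4H was −0.14 when centred on the median, −0.19 without WT replicate 1 and −0.10 without TXNDC9-KO replicate 1. With a library left out, HIST1H3B ranged from −0.41 (without WT replicate 1) to 0.77, HIST1H2BC from −0.77 to 0.043 (without WT replicate 2) and HIST2H3D from −1.05 to 0.11 (without TXNDC9-KO replicate 1). Over named members and alternatives, 274 values kept their direction and side of the threshold, 34 lost the call, 27 gained it and 28 changed sign.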
